A study of Homo sapiens with 15 samples.

Results

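Chromosome 19 carries the largest collection of zinc finger genes in the human genome, and the genes described here were all protein-coding genes of chromosome 19, in GENCODE on GRCh38, whose symbol is ZNF followed by a number. The rule uses a gene's place, class and name and no measured value, and it gave 240 genes of the 57272 genes in the count table, of which 19629 are protein-coding. RNA had been sequenced from MRC-5 cells, a line of human primary fibroblasts of fetal lung origin grown at 5% O2, in 5 groups of 3 libraries. Every group had received a lentivirus made from pWPIR-GFP, either empty or expressing TRF2, the shelterin protein that binds double-stranded telomere repeats (gene TERF2). The young groups, collected at population doubling 30, carried the empty vector with control siRNA, TRF2 with control siRNA, or the empty vector with an siRNA pool against Lamin B1 (siLMNB1). The senescent groups were cells infected at a pre-senescent stage with the empty or the TRF2 virus, grown over many further doublings until they no longer divided, and then given control siRNA. By the study's methods the cells with TRF2 reached that end after more doublings than those with the empty vector, so TRF2 and the number of doublings cannot be told apart in the senescent groups. Infected and transfected cultures of a single line served as the model. The paper describes the young and senescent counts as 3 biological replicates, but nothing in the labels says that the replicates were separate cultures. The p-values below therefore measure the spread between libraries, which may be technical. In bulk RNA, a change in the share of cells that express a gene and a change in RNA per cell cannot be told apart.

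C2H2 zinc finger proteins read DNA with tandem fingers of about the same fold, and most genes of chromosome 19 that encode them also encode a KRAB box. The KRAB box binds TRIM28 (KAP1), which brings SETDB1, a methyltransferase of lysine 9 of histone H3, HP1 proteins and DNA methylation to the bound site, so that many KRAB zinc finger proteins silence retrotransposons. The genes lie in clusters that grew by tandem duplication, and the 3′ parts of many of them carry H3K9me3 themselves, placed there with the help of ZNF274. A search of the translated coding sequences found a KRAB box in 201 of the 240 genes and none in 39. The number of zinc fingers had a median of 12 and ran from 1 in ZNF428 to 36 in ZNF208.

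The promoters of a few genes whose values are described below are printed here as RefSeq sequence (GRCh38.p14, plus strand, 150 bases before the transcription start), to show the motifs that recur in front of these genes. Capitals mark GGGCGG, the core of the GC box, CCGGAAG, a core bound by ETS factors, or ACTACA, any 2 bases and TCCC, the core bound by ZNF143, each on either strand.
ZNF578, chr19:52453403-52453552: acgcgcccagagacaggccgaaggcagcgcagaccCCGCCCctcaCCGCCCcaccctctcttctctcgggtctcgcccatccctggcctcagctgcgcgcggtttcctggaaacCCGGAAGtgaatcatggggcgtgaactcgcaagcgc
ZNF548, chr19:57389704-57389853: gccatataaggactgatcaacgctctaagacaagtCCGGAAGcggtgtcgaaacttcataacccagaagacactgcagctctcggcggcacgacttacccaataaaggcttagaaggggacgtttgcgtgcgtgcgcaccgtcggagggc
ZNF274, chr19:58182911-58183060: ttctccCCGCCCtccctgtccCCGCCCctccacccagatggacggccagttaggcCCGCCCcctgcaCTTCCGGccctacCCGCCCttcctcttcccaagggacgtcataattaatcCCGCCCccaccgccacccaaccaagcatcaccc
ZNF546, chr19:39996910-39997059: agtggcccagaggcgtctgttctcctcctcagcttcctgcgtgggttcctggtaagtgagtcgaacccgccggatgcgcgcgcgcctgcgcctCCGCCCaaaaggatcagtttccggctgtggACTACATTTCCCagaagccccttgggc
ZNF146, chr19:36214956-36215105: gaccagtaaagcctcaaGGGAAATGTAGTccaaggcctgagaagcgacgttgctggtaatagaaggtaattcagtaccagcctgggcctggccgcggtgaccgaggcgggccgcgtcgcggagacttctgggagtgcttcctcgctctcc

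The table of promoters matched 210 of the 240 genes, with 261 windows of 250 bases before a start. CCGGAAG stood in 28% of these windows, against 10.6% of the windows of other protein-coding genes, 25.7% of those of ZNF-number genes on other chromosomes and 8.52% of all windows. The ZNF143 core stood in 13.8% of them, against 2.18%, 6.61% and 1.67%. GGGCGG stood in 63.2%, against 54.1%, 56.0% and 42.6%, and TATAAA in only 2.68%, against 9.07%, 5.45% and 10.7%. The motifs were chosen after these promoters had been looked at, matches of different motifs may overlap, and a match describes letters, not a bound site.

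Libraries held 26725885 to 43116046 counts. The siRNA target LMNB1 stood at 58.6 to 61.0 CPM (counts scaled for library size) in the 3 young libraries with the empty vector and at 2.36 to 2.91 CPM with siLMNB1 (log2 fold change -4.48 ± 0.13 (SE), adjusted p = 2.3e-12, by the quasi-likelihood F test of edgeR, which gave every p below). TERF2 was at 128.1 to 306.7 CPM in young cells with the TRF2 virus and at 21.9 to 25.5 CPM with the empty vector, and the counts cannot tell the endogenous transcript from the transgene. The 8 fibroblast markers tested summed to 20020 to 33370 CPM, while 3 of 4 epithelial, 2 of 3 endothelial and 4 of 4 blood markers stayed under 1 CPM in every library, with KRT5 at 7.28 CPM in a single young library. The endothelial marker VWF stood at 0.616 to 0.941 CPM in the young controls and at 2.38 to 3.14 CPM in senescent cells with the empty vector. All 6 senescent libraries and none of the 9 young ones are marked in the labels as reanalysed from an earlier deposit, so deposit and senescence cannot be told apart. Relative to the mean of the young controls, log2 counts in the senescent libraries rose with a gene's GC content, by 0.46 to 0.823 per 10 percentage points. The slopes were 0.0097 to 0.134 in the young TRF2 and siLMNB1 libraries. Those of the young controls, -0.0063 to 0.011, lie near 0 by construction because these libraries are the reference. Replicate 3 of the senescent empty vector group had the steepest slope. Genes that share exons with another gene also differed: over all 149 protein-coding genes tested that share more than 50% of their exonic bases with a gene on the same strand, log2 fold changes of senescent against young cells had an SD of 4.43, against 1.28 for the 6329 that share none, while with siLMNB1 the SDs were 0.77 and 0.69. The counts of both senescence comparisons are therefore given also from a fit with GC and length offsets. For single genes the value with offsets is given in many cases where these ended or made a call, or moved a called log2 fold change by more than 1.5 times. It is also given for some others. The shared exonic percentage stands beside several of the genes it touches.

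Of the 240 genes, 219 had enough counts to be tested, and 203 of those reached the filter's level of expression in every library of all 5 groups. None reached it in every library of 1 group only, and 2 did so in no group. ZNF888, described below, reached it in every library of the senescent groups only, and ZNF57 of the young groups only. Among the 203 genes, 75 rose and 35 fell in senescent cells with the empty vector (32.7% and 31.9% of all genes). No count of the 21 untested genes exceeded 14, 5 of them were at 0 in every library, and 10 of the 21 lay in the pericentromeric cluster described below. The tested genes were transcribed at a low level: their median in young cells with the empty vector was 4.25 CPM, or 0.784 CPM per kb of exon, against 14.6 CPM and 2.73 CPM per kb over all genes tested. ZNF146, which encodes fingers and little else, had the highest level per length at 24.5 CPM per kb, followed by ZNF787 at 8.82 and ZNF428 at 8.52 CPM per kb. Exonic GC content had a median of 43.3% in the tested genes. It was 42.8% in those with a KRAB box and 59.3% in those without.

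Spaces of more than 1 Mb separated 9 clusters of at least 5 genes and left 9 genes outside. On the short arm, cluster 1 held 5 genes at 2.82 to 2.94 Mb (ZNF554 to ZNF77), cluster 2 held 15 at 7.07 to 9.79 Mb (ZNF557 to ZNF846), cluster 3 held 25 at 11.48 to 12.64 Mb (ZNF653 to ZNF791) and cluster 4 held 37 at 19.67 to 24.13 Mb (ZNF101 to ZNF254), next to the centromere. On the long arm, cluster 5 held 5 genes at 34.68 to 34.96 Mb, cluster 6 held 24 at 36.18 to 37.82 Mb, cluster 7 held 24 at 43.53 to 45.08 Mb, cluster 8 held 39 at 51.57 to 53.58 Mb and cluster 9 held 57 at 55.48 to 58.48 Mb (ZNF628 to ZNF446). The last 2 Mb of 19q lie within cluster 9 and held 43 of the genes, 42 of them tested.

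**Figure D1:**
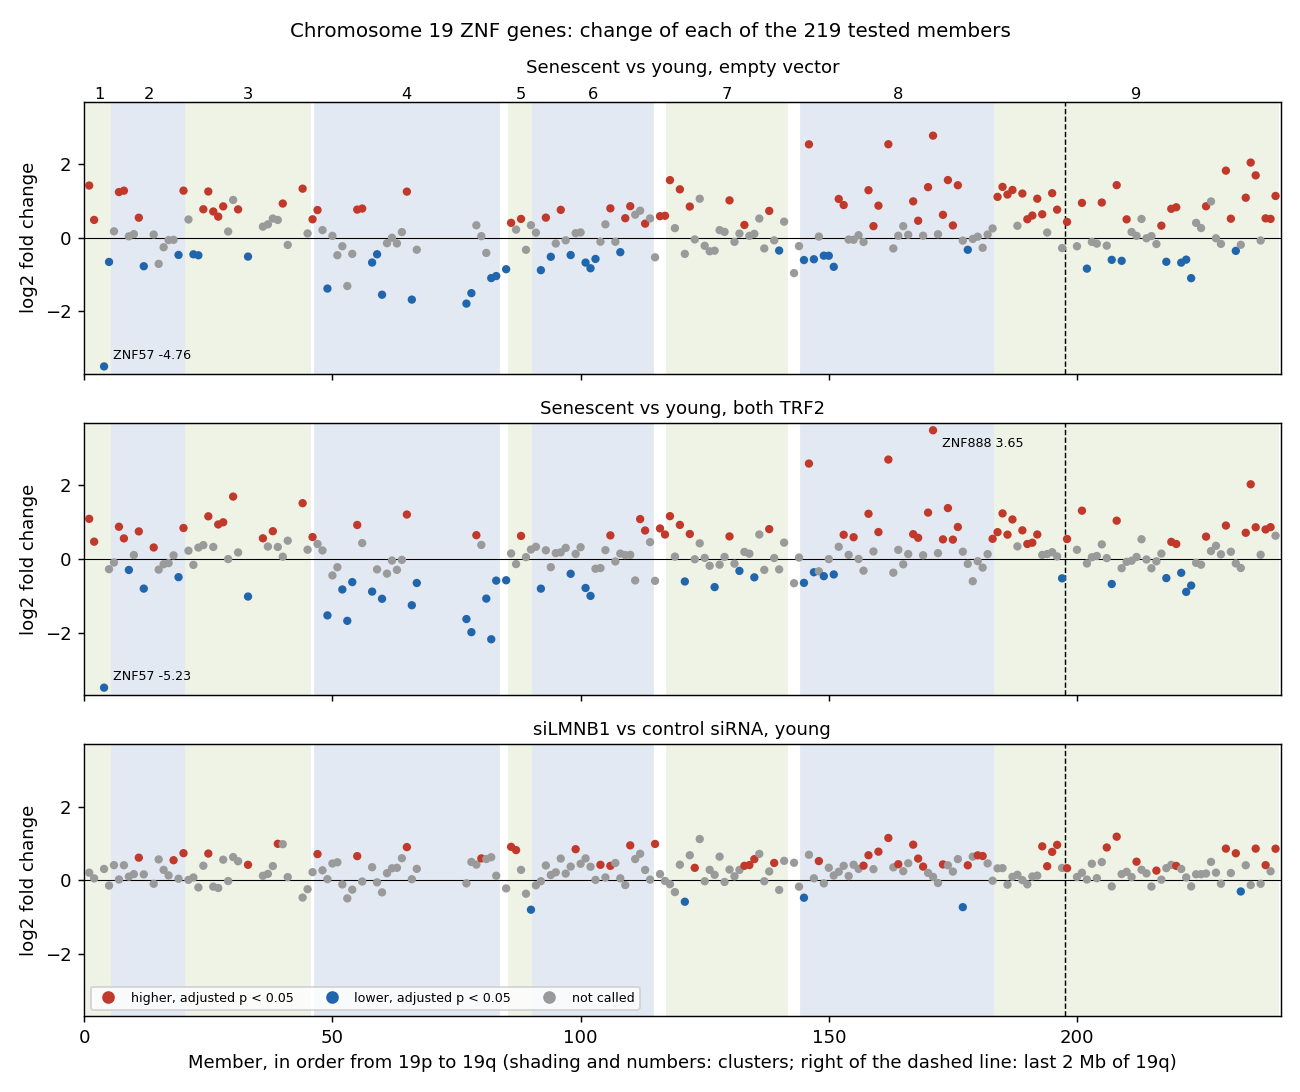
Log2 fold change (vertical axis) of the 219 tested genes in chromosomal order from 19p to 19q (horizontal axis, shading and numbers mark the 9 clusters, the dashed line the start of the last 2 Mb) for senescent against young cells with the empty vector, the same with TRF2, and siLMNB1 against control in young cells. Red points are higher and blue points lower at adjusted p < 0.05: with siLMNB1 50 genes are red and 5 blue, and ZNF57 at -4.76 and -5.23 and ZNF888 at 3.65 are drawn at the edge.

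Young cells with siLMNB1 were compared with young cells given control siRNA to ask how these genes respond when Lamin B1, a structural protein of the nuclear lamina, is lowered in dividing cells. Levels of 50 of the 219 genes rose and 5 fell, with a median log2 fold change of 0.28. Over all 15799 genes tested, 16.4% rose and 16.1% fell, with a median of 0.04. Fold changes were small, since 29 genes rose and 3 fell at the threshold of 0.58 on the log2 scale used with siLMNB1, where 10.3% and 8.06% of all genes did. With the offsets, 65 genes rose and 8 fell (17.0% and 21.8% of all genes). ZNF-number genes on other chromosomes gave 45 higher and 10 lower of 217, with a median of 0.20, and the other protein-coding genes of chromosome 19 gave 128 and 78 of 735, with a median of 0.08. Among the 87 tested genes without a shared exonic base, 21 rose and 2 fell, with a median of 0.32.

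Set against the mean of the young control libraries, the median of the genes in a library was 0.156 to 0.333 with siLMNB1. It was -0.006 to 0.008 in the controls, which lie near 0 by construction because they are the reference. Young cells with TRF2, which are not part of the reference, stood at 0.018 to 0.223 and overlapped the range with siLMNB1. The lowest of the siLMNB1 libraries was replicate 3, which was also the most deeply sequenced. Low levels moved with the result. Genes between 0 and 1 mean CPM had a median log2 fold change of 0.57, against 0.45 for other protein-coding genes of that level, and those between 2 and 5 CPM had 0.29 against 0.26. Between 10 and 20 CPM the medians were 0.24 and 0.06, and 36.1% of these genes rose against 19.6% of the others, whereas between 5 and 10 CPM 20% rose against 25.9%. The part of expression level in the result was not tested.

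**Figure D2:**
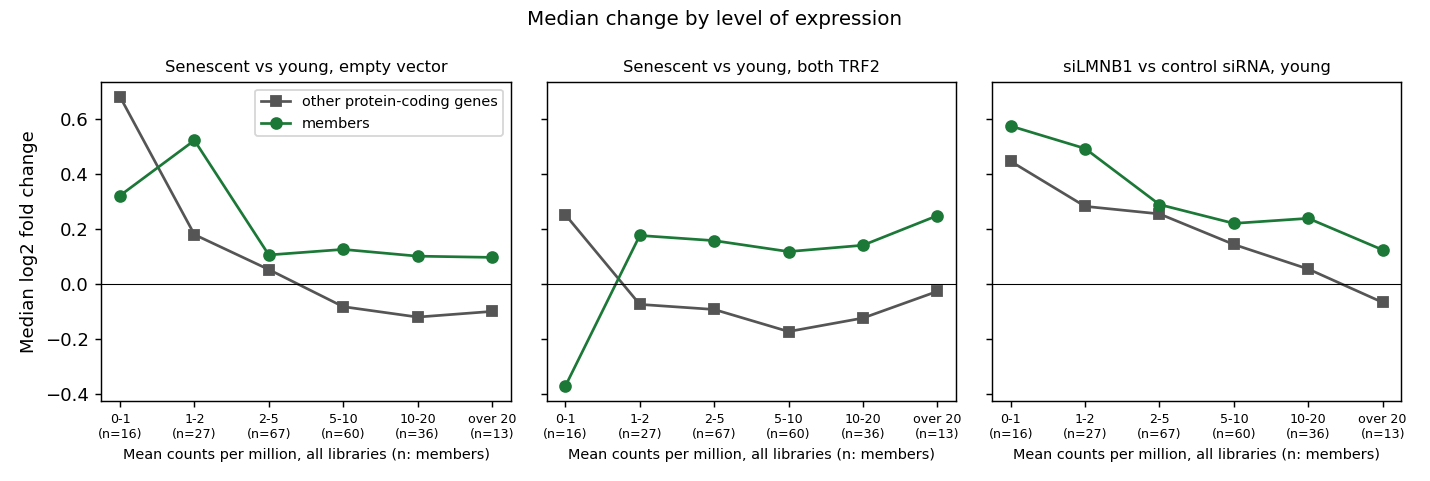
Median log2 fold change (vertical axis) by mean CPM over all libraries (horizontal axis, with the number of chromosome 19 ZNF genes in each bin) for these genes (green) and other protein-coding genes (grey) in 3 comparisons. With siLMNB1 both lines fall with level, from 0.57 and 0.45 in the lowest bin to 0.12 and -0.07 above 20 CPM, and the green line is the higher in each bin.

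ZNF302 (chr19:34677639-34686397, cluster 5, sharing no exonic base) had the smallest adjusted p of the siLMNB1 comparison. Its level was 13.4, 12.7 and 10.8 CPM in the young controls and 21.8, 24.3 and 23.1 CPM with siLMNB1, without overlap (log2 fold change 0.91 ± 0.11 (SE), adjusted p = 1.1e-05). ZNF548 (chr19:57389850-57402992), near the end of 19q, went from 7.21, 7.34 and 7.74 to 13.8, 14.9 and 12.6 CPM (log2 fold change 0.89 ± 0.11 (SE), adjusted p = 1.74e-05). ZNF274, which helps to place H3K9me3 on zinc finger genes, went from 14.2, 11.2 and 12.4 to 23, 20.7 and 19 CPM (log2 fold change 0.73 ± 0.12 (SE), adjusted p = 0.000163). All 3 siLMNB1 libraries stood above all 3 controls for each of these genes.

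The largest rises with separated libraries were those of ZNF749 (1.18), ZNF578 (1.15), ZNF546 (0.99), ZNF600 (0.97) and ZNF471 (0.96 on the log2 scale, adjusted p = 0.00246, 0.0022, 0.0109, 0.00107 and 0.00144). ZNF749 stood at 0.801, 2.08 and 1.67 CPM in the controls and at 3.44, 4.24 and 2.83 CPM with siLMNB1. ZNF578, which has CCGGAAG and paired GC boxes in the promoter shown above, stood at 0.627, 0.704 and 0.707 and then at 1.51, 1.76 and 1.29 CPM. ZNF600 and ZNF471, which share no exonic base, reached 4.72, 3.77 and 3.67 CPM and 8.15, 6.96 and 6.54 CPM from 2.61, 1.67 and 1.93 CPM and 3.94, 3.11 and 4.09 CPM. The genes that fell were ZNF792 (-0.80), ZNF677 (-0.73), ZNF283 (-0.59), ZNF175 (-0.48) and ZNF544 (-0.31 on the log2 scale). ZNF677 fell from 9.27, 10.4 and 10.8 to 5.63, 6.74 and 5.95 CPM, with an adjusted p of 0.00507. The call of ZNF546 was lost without replicate 2 of the young controls (adjusted p = 0.062). Those of ZNF792 (without control replicate 2 or 3 or siLMNB1 replicate 3, adjusted p = 0.0505 to 0.0944), ZNF283 (control 1 or 2 or any siLMNB1 replicate, 0.0618 to 0.108), ZNF175 (these or senescent TRF2 replicate 1 or 3, 0.0517 to 0.183) and ZNF544 (control 1 or 3 or any siLMNB1 replicate, 0.0605 to 0.138) also depended on single libraries. That of ZNF544 was lost as well with no filter on low counts (adjusted p = 0.147).

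By cluster, siLMNB1 gave 13 higher and 2 lower of 38 genes in cluster 8, with a median of 0.39, and 15 higher and 1 lower of 56 in cluster 9, with a median of 0.22. The shares of all genes were 16.4% higher and 16.1% lower. In cluster 8 the largest rises were those of ZNF578 (1.15), ZNF600 (0.97) and ZNF528 (0.78), followed by ZNF610 and ZNF765 (0.68 and 0.68 on the log2 scale), the last 3 named after their values were seen. Cluster 6 gave 4 higher of 24, cluster 4 gave 4 of 27, cluster 7 gave 5 higher and 1 lower of 24, clusters 2 and 3 gave 3 higher each of 14 and 20, and cluster 5 gave 2 higher and 1 lower of 5. None of the 4 tested genes of cluster 1 was called. The last 2 Mb of 19q gave 11 higher and 1 lower of 42, with a median of 0.22. With a KRAB box 46 rose and 5 fell of 185, with a median of 0.33, and without it 4 rose and none fell of 34, with a median of 0.11.

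Leaving out replicate 1 or 2 of the young controls or of the siLMNB1 libraries lowered the number of genes that rose from 50 to between 28 and 31. The library left out made the count 30 and 31 for the controls and 28 and 29 for siLMNB1.

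Senescent cells were compared with young cells, both with the empty vector, to ask how the genes change when the line stops dividing. Levels of 78 of the 219 genes rose and 39 fell, with a median log2 fold change of 0.14. Over all genes 32.7% rose and 31.9% fell, with a median of 0.02, so the share of the chromosome 19 ZNF genes that rose (35.6%) was near that of all genes and the share that fell (17.8%) below it. Past a threshold of 1 on the log2 scale, 31 genes rose and 9 fell (16.7% and 11.8% of all genes). With the offsets 105 rose and 22 fell, with a median of 0.36 (27.1% and 30.5% of all genes). Of the 78 genes higher without offsets, 66 stayed higher, 10 were no longer called and 2, ZNF581 and ZNF787, became lower. Of the 39 lower genes 17 stayed lower and 22 were no longer called, and 39 further genes became higher and 3 lower.

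The same comparison in cells with TRF2, which shares no library with the one above, gave 64 higher and 37 lower genes, with a median of 0.13 (28.2% and 30.1% of all genes, median -0.02). At the threshold of 1, 18 rose and 11 fell (11.9% and 12.1% of all genes). With the offsets 87 rose and 23 fell, with a median of 0.23 (24.6% and 30.3% of all genes). The genes that rose in both comparisons numbered 56, which is 71.8% of those that rose with the empty vector and 87.5% of those that rose with TRF2. Over all genes these shares were 74.7% and 86.7%. The genes that fell in both numbered 26 (66.7% and 70.3%), against 78.9% and 83.8% over all genes. None of the 219 genes was called in opposite directions. Over all genes, 25 of the 5173 higher with the empty vector were lower with TRF2, and 4 of the 5044 lower ones were higher.

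**Figure D3:**
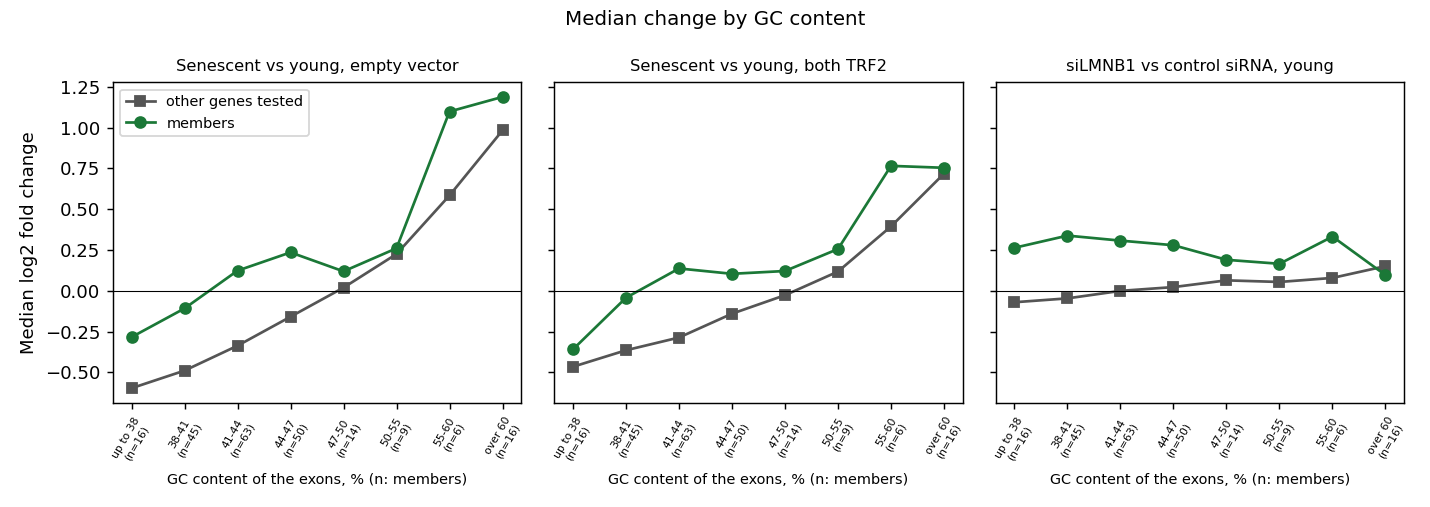
Median log2 fold change (vertical axis) by GC content of the exons (horizontal axis, with the number of chromosome 19 ZNF genes in each bin) for these genes (green) and the other genes tested (grey). In senescent against young cells with the empty vector both lines climb with GC content, from -0.28 and -0.60 up to 38% to 1.19 and 0.98 above 60%, while with siLMNB1 they are flatter.

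GC content moved with these results. In the bins where most of the genes lie, from 38 to 41%, 41 to 44% and 44 to 47% GC, their median log2 fold changes with the empty vector were -0.11, 0.12 and 0.24, against -0.49, -0.34 and -0.16 for the other genes tested of the same GC content. Above 60% GC the medians were 1.19 and 0.98. With siLMNB1 the same 3 bins gave 0.34, 0.31 and 0.28, against -0.05, 0.00 and 0.02. By level, those between 5 and 10 mean CPM had a median of 0.13 in senescent cells with the empty vector, against -0.08 for other protein-coding genes, and those between 0 and 1 CPM had 0.32 against 0.68. The other protein-coding genes of chromosome 19, which are rich in GC, went from 497 higher and 67 lower of 735 to 219 and 241 with the offsets, and their median from 0.74 to -0.01. ZNF-number genes on other chromosomes gave 66 higher and 64 lower of 217, with a median of -0.09, and 48 and 56 with the offsets, with a median of -0.04. The part of GC content in the counts was not tested beyond these offsets.

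With a KRAB box 59 genes rose and 33 fell of 185 in senescent cells with the empty vector, with a median of 0.10, and without it 19 rose and 6 fell of 34, with a median of 0.55. The offsets turned this order around, to 94 and 15 with a median of 0.42 for the genes with a KRAB box and 11 and 7 with a median of 0.06 for those without. With TRF2 the counts were 47 and 33 against 17 and 4, and 79 and 17 against 8 and 6 with the offsets. Among the 87 genes that share no exonic base 31 rose and 14 fell, with a median of 0.12, and 41 and 6 with the offsets, with a median of 0.33.

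The libraries of each group lay close together in their median over the genes, at 0.120 to 0.203 relative to the young controls in senescent cells with the empty vector and at 0.196 to 0.263 in those with TRF2. Summed over the genes, the levels were 1461 to 1475 CPM in the young controls, 1651 to 1736 CPM in senescent cells with the empty vector, 1740.0 to 1767 CPM in senescent cells with TRF2 and 1617 to 1773 CPM with siLMNB1. All of these libraries stood above the young controls. Young cells with TRF2 spread from 1485 to 1673 CPM.

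**Figure D4:**
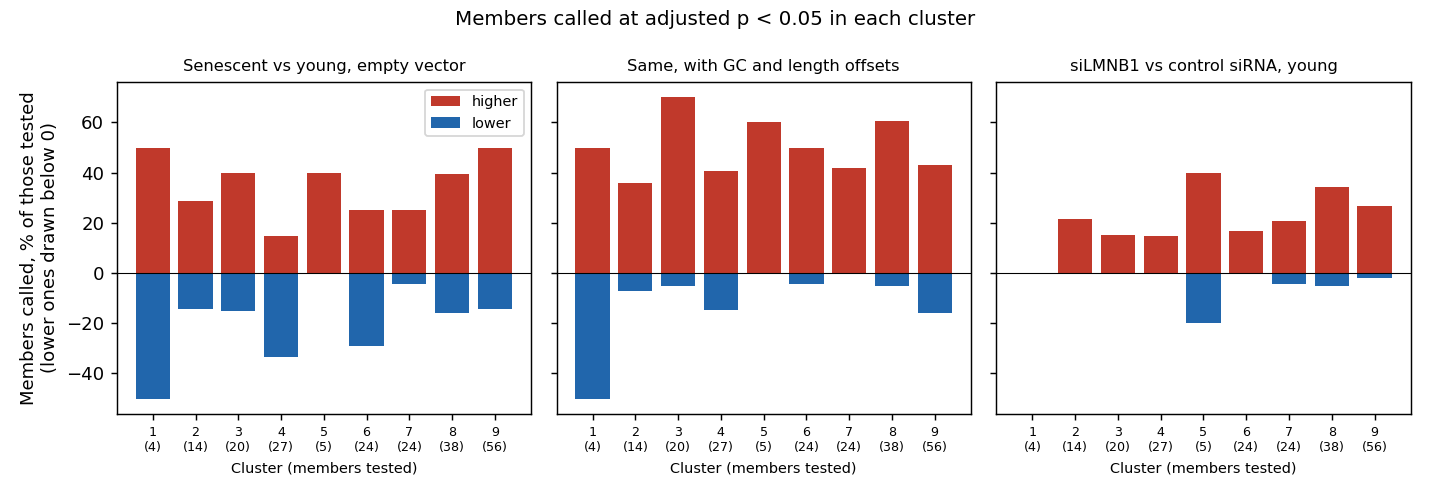
Percentage of the tested genes of each cluster (horizontal axis, with the number tested) that were higher (red, above 0) or lower (blue, below 0) at adjusted p < 0.05. Cluster 4 has 4 higher and 9 lower of 27 genes in senescent cells with the empty vector, 11 and 4 with the offsets, and 4 and 0 with siLMNB1.

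The clusters did not move alike in senescent cells with the empty vector, where 32.7% of all genes rose and 31.9% fell. Cluster 9, at the end of 19q, gave 28 higher and 8 lower of 56 genes, with a median of 0.47, and cluster 8 gave 15 and 6 of 38, with a median of 0.08. Their tested genes had a median exonic GC content of 46.7% and 42.73%, and those of cluster 4 had 38.15%. The part of GC content in this order was not tested beyond the offsets. Cluster 4, beside the centromere and with 27 of its 37 genes tested, gave 4 higher and 9 lower, with a median of -0.33. With the offsets its counts turned to 11 higher and 4 lower, with a median of 0.28. In cells with TRF2 cluster 4 gave 3 higher and 13 lower, with a median of -0.45, and with the offsets 7 and 6, with a median of -0.08. The direction of this cluster therefore depended on the offsets with the empty vector, and with TRF2 the offsets brought its counts close together.

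With the empty vector clusters 2, 3, 5, 7, 8 and 9 had more higher than lower genes under both fits, and cluster 1 had as many. Cluster 3 gave 8 higher and 3 lower of 20, and 14 and 1 with the offsets, with medians of 0.51 and 0.81. Cluster 8 gave 23 higher and 2 lower with the offsets, with a median of 0.47, and in cells with TRF2 it gave 15 and 4, and 23 and 1. Cluster 6 went from 6 higher and 7 lower of 24 to 12 and 1, and cluster 7 from 6 and 1 of 24 to 10 and 0. Cluster 2 gave 4 higher and 2 lower of 14, and 5 and 1 with the offsets. Cluster 5 gave 2 higher of 5, and 3 with the offsets, and cluster 1 gave 2 higher and 2 lower of 4 under both. With the offsets cluster 9 gave 24 higher and 9 lower, with a median of 0.16.

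Within the last 2 Mb of 19q, 17 genes rose and 8 fell of 42 in senescent cells with the empty vector, with a median of 0.21, and 17 and 6 with the offsets, with a median of 0.16. The shares of all genes were 32.7% and 31.9%, and 27.1% and 30.5% with the offsets. In cells with TRF2, 12 rose and 5 fell, with a median of 0.12, and 14 and 5 with the offsets, with a median of 0.15. Here the shares of all genes were 28.2% and 30.1%, and 24.6% and 30.3% with the offsets. The smallest adjusted p in this stretch with the empty vector was that of ZNF135, followed by ZNF8 and ZNF837. The call of ZNF837, whose exons hold 70.1% GC, was lost with the offsets (log2 fold change 1.70 without and 0.26 with them, adjusted p = 0.321). ZNF8 (sharing 20.7% of its exonic bases with another gene) went from 2.82, 3.46 and 3.09 CPM to 6.58, 6.66 and 6.74 CPM (log2 fold change 1.09 ± 0.16 (SE), adjusted p = 2.05e-05). ZNF446, 136386 bases from the end of the chromosome, is the last gene of the set, and it stood at 1.60, 1.29 and 1.45 CPM in young and 3.16, 2.70 and 3.66 CPM in senescent cells (log2 fold change 1.14 ± 0.28 (SE), adjusted p = 0.00219, and 0.43 with the offsets, adjusted p = 0.195, with 60.4% of its exonic bases shared). With TRF2 the smallest adjusted p values were those of ZNF586 (-0.90), ZNF324 (0.87) and ZNF132 (0.80 on the log2 scale), and the offsets lowered that of ZNF324 to 0.36 (adjusted p = 0.0239).

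In both senescence comparisons, the genes that rose most with separated libraries were ZNF888, ZNF578 and ZNF577, all in cluster 8. ZNF578 (chr19:52453553-52516882) stood at 0.627, 0.704 and 0.707 CPM in young cells with the empty vector and at 4.24, 4.22 and 3.5 CPM in senescent cells (log2 fold change 2.54 ± 0.24 (SE), adjusted p = 1.24e-07). With TRF2 it went from 0.597, 1.16 and 0.908 to 5.76, 4.90 and 6.64 CPM (log2 fold change 2.70 ± 0.22 (SE), adjusted p = 2.89e-08). All 6 senescent libraries stood above all 9 young ones, those with siLMNB1 included. The offsets left these log2 fold changes at 2.74 and 2.83. ZNF578 thus rose in both senescence comparisons and with siLMNB1, the latter sharing its controls with the empty vector comparison.

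ZNF888 (chr19:52904415-52923470) rose from 0.139, 0.293 and 0.483 CPM to 2.12, 2.29 and 1.88 CPM with the empty vector (log2 fold change 2.78 ± 0.37 (SE), adjusted p = 6.18e-06) and to 2.71, 2.07 and 2.36 CPM with TRF2. Its young level was near that of the filter, so the size of its change is uncertain. ZNF577 rose from 0.557, 0.323 and 0.483 CPM to 1.56, 3.22 and 3.11 CPM (log2 fold change 2.54 ± 0.45 (SE), adjusted p = 0.000122). The better-expressed ZNF320 (chr19:52860851-52897693), which shares no exonic base, had the smallest adjusted p of cluster 8. It stood at 6.34, 7.48 and 5.95 CPM in young cells with the empty vector and at 17, 19.5 and 15 CPM in senescent cells (log2 fold change 1.38 ± 0.12 (SE), adjusted p = 9.26e-08, and 1.70 with the offsets). Its neighbours ZNF415, ZNF665 and ZNF610 rose as well (named after their values were seen), by 1.57, 1.43 and 1.29 on the log2 scale. The 6 genes of the same cluster that fell included ZNF175 and ZNF350, described below.

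**Figure D5:**
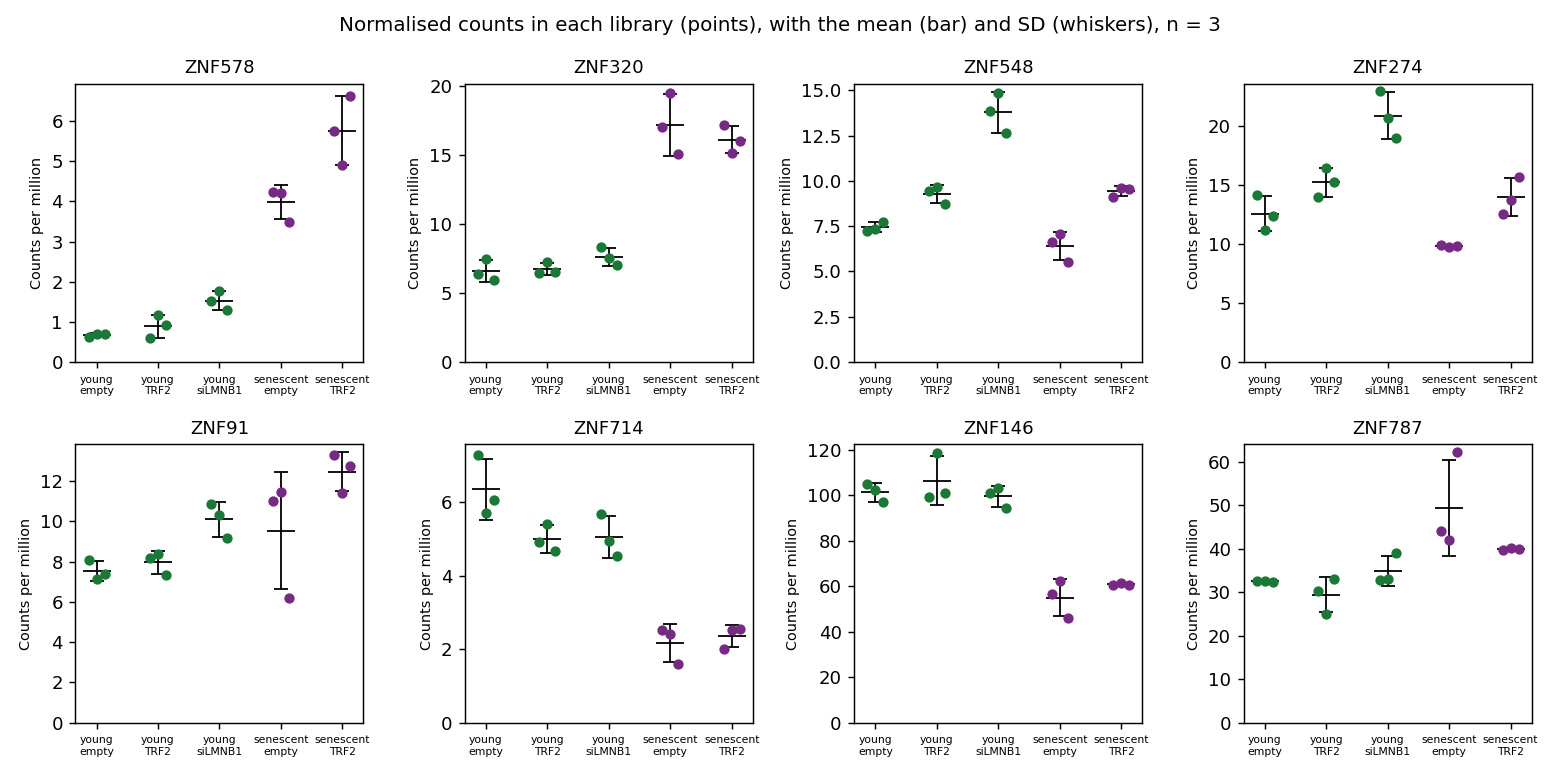
Level of 8 genes in CPM (vertical axes, from 0) in each library (points) of the 5 groups (horizontal axes), with the mean (bar) and the SD (whiskers, n = 3), young cells in green and senescent cells in purple. ZNF578 and ZNF320 are higher in all 6 senescent libraries than in all 9 young ones, ZNF714 and ZNF146 lower, and ZNF548 and ZNF274 are highest with siLMNB1.

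ZNF497 and ZNF135, both in cluster 9, also rose in senescent cells with the empty vector, by 2.04 and 1.82 on the log2 scale (adjusted p = 0.00129 and 9.35e-06), and overlap exons of other genes over 52.3% and 32.6% of their exonic bases. The offsets lowered the value of ZNF497 to 1.19 (adjusted p = 0.0455) and left that of ZNF135 at 1.32. ZNF135 rose too with siLMNB1, from 1.81, 1.32 and 2.34 to 2.92, 3.37 and 3.54 CPM (log2 fold change 0.86 ± 0.25 (SE), adjusted p = 0.0164). ZNF865 (chr19:55605647-55617269), a gene without a KRAB box, had the smallest adjusted p of all. It stood at 17.4, 21.9 and 17.8 CPM in young and 42.9, 42.6 and 55.2 CPM in senescent cells with the empty vector (log2 fold change 1.30 ± 0.12 (SE), adjusted p = 9.08e-08), without overlap. With the offsets the value was -0.12 (adjusted p = 0.318), so its direction was not kept. ZNF787, also without a KRAB box, went from 0.60 to -0.47 on the log2 scale, and with TRF2 from 0.44 to -0.36, where the call without offsets was lost without replicate 2 of the young TRF2 libraries (adjusted p = 0.0604). In the other clusters the smallest adjusted p values with the empty vector were those of ZNF554 (1.42, cluster 1), ZNF414 (1.28, cluster 2), ZNF490 (1.33, cluster 3, sharing 51.1%), ZNF302 (0.40, cluster 5) and ZNF575 (1.57 on the log2 scale, cluster 7). With the offsets these were 1.30, 0.33, 1.33, 0.90 and 0.79.

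The genes that fell most with the empty vector were ZNF57 of cluster 1 and ZNF730, ZNF100, ZNF714 and ZNF724 of cluster 4. ZNF57 had 29, 35 and 31 counts in the young libraries and 1 count in each senescent library, a ratio of 0.0334 after scaling for library size, with a 95% interval of 0.00677 to 0.101 that covers counting error only. With TRF2 its ratio was 0.0234 (0.00477 to 0.07). ZNF57 shares 75.2% of its exonic bases with a gene on the opposite strand, and without a known strand setting their reads cannot be told apart. ZNF714 (chr19:21082159-21125270) fell from 7.28, 5.69 and 6.06 CPM to 2.53, 2.41 and 1.59 CPM (log2 fold change -1.55 ± 0.18 (SE), adjusted p = 1.83e-06, and -1.01 with the offsets). ZNF100 fell from 4.74, 4.67 and 3.98 CPM to 1.11, 2.04 and 1.04 CPM (log2 fold change -1.68 ± 0.23 (SE), adjusted p = 9.2e-06, and -1.07 with the offsets). ZNF730 and ZNF724 stood under 1 CPM throughout most libraries, at log2 fold changes of -1.79 and -1.51. Both calls were lost with the offsets, which gave -1.09 and -1.09 (adjusted p = 0.14 and 0.0924). The call of ZNF730 was lost without senescent empty vector replicate 1 (adjusted p = 0.0582), and that of ZNF724 without replicate 1 of the young controls or replicate 1 or 3 of these senescent cells (0.0544 to 0.0948).

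With TRF2 the genes that fell most were ZNF57, ZNF726 (-2.18), ZNF724 (-1.99), ZNF90 (-1.68) and ZNF730 (-1.63 on the log2 scale), the last 4 all in cluster 4 and all under 1 CPM. ZNF497 rose by 2.03 and ZNF763 of cluster 3, sharing 44.5%, by 1.70. With the offsets the calls of ZNF90 and ZNF730 were lost, at -1.39 and -1.14 (adjusted p = 0.063 and 0.0949), while ZNF726 and ZNF724 gave -1.81 and -1.65 (adjusted p = 0.0055 and 0.0182). The call of ZNF90 was also lost with no filter on low counts (adjusted p = 0.0603). The calls of ZNF763 (without senescent TRF2 replicate 2, adjusted p = 0.0566), ZNF730 (without young TRF2 replicate 3 or senescent TRF2 replicate 2, 0.06 to 0.0926) and ZNF90 (without young TRF2 replicate 1 or 2 or senescent TRF2 replicate 1 or 3, 0.0501 to 0.0976) were lost with single libraries.

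ZNF146 (chr19:36214602-36238771), the most highly transcribed of the genes and the one with the ZNF143 core near the far end of the promoter shown above, fell in senescent cells. It stood at 105, 102 and 96.8 CPM in young and 56.5, 62.5 and 46.1 CPM in senescent cells with the empty vector (log2 fold change -0.88 ± 0.10 (SE), adjusted p = 1.71e-06, and -0.47 with the offsets). With TRF2 the levels were 99.1, 119 and 101 and 60.5, 61.4 and 60.4 CPM (log2 fold change -0.81, and -0.49 with the offsets). With siLMNB1 they were 101, 103 and 94.3 CPM, a log2 fold change of -0.03 (adjusted p = 0.865). Of the 34 tested genes with that motif, 5 rose and 8 fell in senescent cells with the empty vector, and 5 rose and 1 fell with siLMNB1. Of the 64 with CCGGAAG, 21 rose and 17 fell, and 16 rose and 3 fell with siLMNB1. Of all 219 tested genes 78 rose and 39 fell, and 50 rose and 5 fell with siLMNB1. Over all genes 32.7% rose and 31.9% fell, and 16.4% and 16.1% with siLMNB1. The motif counts were not made with the offsets.

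Several of the genes have known targets or partners. ZNF91 and ZNF93 of cluster 4 bind and silence SVA and LINE-1 retrotransposons. ZNF91 stood at 8.08, 7.13 and 7.36 CPM in young cells with the empty vector, 11, 11.4 and 6.18 CPM in senescent cells with it and 13.3, 11.4 and 12.7 CPM in senescent cells with TRF2. Without offsets it was called with TRF2 (log2 fold change 0.65 ± 0.17 (SE), adjusted p = 0.0042) and not with the empty vector (0.34, adjusted p = 0.104), where replicate 3, the library of steepest GC slope, stood apart. With the offsets it rose in both comparisons, by 0.96 and 0.85 on the log2 scale (adjusted p = 3.73e-07 and 2.51e-06). With siLMNB1 ZNF91 gave 0.42 (adjusted p = 0.0757), and 0.47 with the offsets, which was a call (adjusted p = 0.00147). ZNF93 gave -0.48, -0.22 and 0.49 in the empty vector, TRF2 and siLMNB1 comparisons and was called in none, with or without the offsets. ZNF417 and ZNF587, near-identical neighbours that bind HERV-K, have 22.9% and 17.2% of their 75-base windows elsewhere in the annotated transcripts, so their counts are uncertain. ZNF417 rose with the empty vector (log2 fold change 0.86 ± 0.19 (SE), adjusted p = 0.000961) and with TRF2 (0.61), the latter not without young TRF2 replicate 1 (adjusted p = 0.0515). ZNF587 gave 0.26 with the empty vector (adjusted p = 0.169) and was called with the offsets (0.41, adjusted p = 0.0398).

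ZNF274, which binds the 3′ ends of zinc finger genes with SETDB1, stood at 14.2, 11.2 and 12.4 CPM in young controls and 9.89, 9.74 and 9.81 CPM in senescent cells with the empty vector. It fell there (log2 fold change -0.36, adjusted p = 0.0152), a call lost without young control replicate 1 (0.0824) and in a fit of the compared libraries alone (0.0519), whereas with siLMNB1 it rose, as given above. The offsets made the fall larger, at -0.64 (adjusted p = 0.000119), and made it a call with TRF2 (-0.37 in place of -0.12, adjusted p = 0.00836). ZNF331, an imprinted gene, rose with TRF2 (log2 fold change 0.55 ± 0.13 (SE), adjusted p = 0.00198) and gave 0.25 with the empty vector (adjusted p = 0.108). ZNF350 (ZBRK1), a repressor that works with BRCA1, fell with the empty vector and with TRF2 (log2 fold changes -0.49 and -0.47), and both calls were lost with the offsets (-0.20 and -0.24, adjusted p = 0.242 and 0.146). ZNF175 fell in senescent cells with the empty vector (log2 fold change -0.61, adjusted p = 0.00594, and -0.40 with the offsets, adjusted p = 0.0441). ZNF568, whose mouse counterpart represses an Igf2 transcript, fell with the empty vector (log2 fold change -0.58, adjusted p = 0.00237), a call lost with the offsets (-0.16, adjusted p = 0.414).

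ZNF224, a repressor first described at the aldolase A promoter, rose with the empty vector (log2 fold change 1.02 ± 0.26 (SE), adjusted p = 0.00249), sharing 42.4% of its exonic bases, and with TRF2 by 0.61, a call lost without young TRF2 replicate 1 or 3 or senescent TRF2 replicate 1 or 2 (adjusted p = 0.086 to 0.167). ZNF382 rose with the empty vector by 0.76 (adjusted p = 0.0125, 0.0653 to 0.0746 without replicate 2 of either group, and 0.0612 in a fit of the compared libraries alone). With siLMNB1 ZNF382 gave 0.59 (adjusted p = 0.0746), and 0.57 with the offsets, which was a call (adjusted p = 0.0446). ZNF420 (Apak), a negative regulator of p53, gave -0.11 and -0.25 in the senescence comparisons, not called, and with the offsets 0.40, a rise that was called (adjusted p = 0.0198), and 0.13 (adjusted p = 0.453). It rose with siLMNB1 by 0.42 (adjusted p = 0.0366), a call lost with no filter on low counts (0.142) and without any of 8 libraries (0.05 to 0.135), which were all 3 young controls, siLMNB1 replicates 1 and 2, young TRF2 replicate 1 and senescent TRF2 replicates 1 and 2. ZNF675 (TIZ), which binds TRAF6, rose with siLMNB1 by 0.59, but not without control replicate 1 or 2 or siLMNB1 replicate 2 (0.0534 to 0.134). At senescence ZNF675 was not called without offsets, at 0.04 with the empty vector and 0.38 with TRF2. With the offsets it was called higher in both (0.48 and 0.68, adjusted p = 0.0172 and 0.00124). ZNF71 of the end of 19q rose in both senescence comparisons, by 0.43 and 0.54, but with the offsets the first call was lost (0.16, adjusted p = 0.187) and the second value was 0.33 (adjusted p = 0.00968). It rose with siLMNB1 by 0.33, a call lost with no filter on low counts (0.0993) and without control replicate 1 or 3 or siLMNB1 replicate 2 (0.0902 to 0.111). ZNF473, which acts in the 3′ processing of histone mRNA, ZNF808, needed for pancreas formation, and ZNF304, a partner of TRIM28 at silenced tumour suppressors, were called in no comparison without offsets, at -0.23, -0.29 and -0.16 with the empty vector. With the offsets these were -0.32, 0.06 and -0.06, of which that of ZNF473 was a call (adjusted p = 0.0361).

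The genes called higher in senescent cells with TRF2 and with siLMNB1, comparisons that share no library, numbered 18, which is 28.1% of the former and 36.0% of the latter. Over all genes these shares were 25.9% and 44.6%. The genes lower in both numbered 2 (5.41% and 40.0%), against 30.1% and 56.1% over all genes. Of the 37 genes lower in senescent cells with TRF2, 2 were higher with siLMNB1, against 520 of 4753 over all genes. Of the 64 higher ones, 0 were lower with siLMNB1, against 418 of 4458 over all genes.

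TRF2 was expressed in young and in senescent cells to ask what the genes do when TRF2 is kept high. In young cells 0 of the 219 genes rose or fell in edgeR's test (0.152% and 0.0253% of all genes), 25 had an unadjusted p below 0.05, and DESeq2 called 0. Their median log2 fold change was 0.09, against 0.01 over all genes, and replicate 2 of the TRF2 libraries stood at 0.22 while the others stood at 0.06 and 0.02. In senescent cells 6 genes rose and 0 fell with TRF2 (4.87% and 6.41% of all genes), with a median of 0.06. A total of 33 had an unadjusted p below 0.05 and DESeq2 called 9. Of these 6 genes, 5 were in the last 2 Mb of 19q, where 42 of the 219 tested genes lie. All 6 have a KRAB box, as do 185 of the 219.

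Those genes were ZNF460 (0.97), ZNF543 (0.69), ZNF548 (0.56), ZNF264 (0.55) and ZNF274 (0.51 on the log2 scale) at the end of 19q, and ZNF254 (0.60) in cluster 4. ZNF548 stood at 6.62, 7.07 and 5.54 CPM in senescent cells with the empty vector and at 9.11, 9.61 and 9.57 CPM with TRF2 (log2 fold change 0.56 ± 0.11 (SE), adjusted p = 0.0057), without overlap. ZNF264 stood at 21, 17.7 and 14.7 CPM and at 26.7, 24.1 and 27.4 CPM, and ZNF274 at 12.6, 13.8 and 15.7 CPM with TRF2, again apart. In young cells ZNF548 gave 0.32 with TRF2 (adjusted p = 0.34) and ZNF274 gave 0.28 (adjusted p = 0.439). In a fit of these 6 libraries alone none of the 6 genes was called (adjusted p = 0.119 to 0.25), ZNF548 included (0.135). With the offsets all 6 were called, ZNF254 at 0.35 (adjusted p = 0.043). In the model over all groups the call of ZNF548 stood whichever library was left out. The other calls were lost without single libraries: ZNF274 without senescent TRF2 replicate 3 (adjusted p = 0.0652), ZNF264 without senescent TRF2 replicate 1 or 3 (0.0581 to 0.059), ZNF254 without senescent TRF2 replicate 1 or 2 or senescent empty vector replicate 3 (0.0518 to 0.0757), ZNF543 without any senescent TRF2 replicate or senescent empty vector replicate 3 (0.05 to 0.0647), and ZNF460 without any of 12 libraries (0.0512 to 0.126), that is all but young TRF2 replicates 1 and 2 and senescent empty vector replicate 1. The count was 18 without that last library and 2 or 3 without any senescent TRF2 replicate or empty vector replicate 3.

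The interaction, which asks whether the change at senescence differed between TRF2 and the empty vector, was called for 0 of the 219 genes (1.13% of all genes in either direction), with 17 at an unadjusted p below 0.05 and 1 call by DESeq2. The smallest adjusted p was 0.0728, for ZNF667 of cluster 9 (log2 difference -1.03). ZNF667 stood at 3.38, 2.26 and 2.71 CPM in young and 6.73, 6.92 and 5.67 CPM in senescent cells with the empty vector, and at 4.89, 4.69 and 3.41 CPM and 4.33, 5.47 and 4.98 CPM with TRF2. Without senescent empty vector replicate 1, 8 genes were called for the interaction, and 1 without replicate 3.

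The corepressors and chromatin enzymes that work with KRAB zinc finger proteins, a list of 26 genes, all tested, moved mostly down in senescent cells: 3 rose and 17 fell with the empty vector, with 4 and 16 with the offsets, and 3 rose and 15 fell with TRF2. Over all genes 32.7% rose and 31.9% fell with the empty vector (27.1% and 30.5% with the offsets), and 28.2% and 30.1% with TRF2. With siLMNB1 5 rose and 8 fell (16.4% and 16.1% of all genes). CHD4 had the largest change of the list, at -4.46 with the empty vector and -4.35 with TRF2, against -0.07 with siLMNB1. The part of the separate deposits in that change was not tested. TRIM28, the corepressor that the KRAB box binds, gave 0.04 in senescent cells with the empty vector (adjusted p = 0.76) and -0.84 with the offsets, so its direction depended on them. With siLMNB1 TRIM28 fell from 303.6 to 318.0 CPM in the controls to 230.9 to 255.4 CPM (log2 fold change -0.37 ± 0.10 (SE), adjusted p = 0.00808). SETDB1 rose from 14.2 to 14.5 CPM to 18.3 to 20.3 CPM with siLMNB1 (log2 fold change 0.44 ± 0.11 (SE), adjusted p = 0.00471) and gave -0.05 in senescent cells with the empty vector (adjusted p = 0.682).

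The maintenance methyltransferase DNMT1 and UHRF1, which brings it to newly copied DNA, fell in all 3 of these comparisons. UHRF1 stood at 82.7 to 85.8 CPM in young controls, 59.3 to 69.2 CPM with siLMNB1, 27.8 to 33.1 CPM in senescent cells with the empty vector and 23.0 to 25.6 CPM in those with TRF2. Its log2 fold changes were -1.50 with the empty vector, -1.72 with TRF2 and -0.41 with siLMNB1, and those of DNMT1 were -0.87, -0.93 and -0.41. With the offsets the senescence values were -1.93 and -2.03 for UHRF1 and -1.22 and -1.28 for DNMT1. The HP1 genes CBX5 and CBX3 and the H3K9 methyltransferase gene SUV39H2 fell with the empty vector (log2 fold changes -1.26, -0.89 and -1.83). The H3K9 demethylase genes of the list did not move alike: KDM4B and KDM4C rose (1.12 and 1.36) and KDM4A fell (-1.50 on the log2 scale). With the offsets all of these were called in the same direction, but the value of KDM4B was 0.39. Those of KDM4C and KDM4A were 1.70 and -1.62, and those of CBX5, CBX3 and SUV39H2 were -0.89, -0.65 and -1.36. Genes of dividing cells moved with them: MKI67 was at 54.9 to 68.1 CPM in young controls, 17.9 to 29.8 CPM with siLMNB1 and 4.83 to 7.73 CPM in senescent cells with the empty vector. The part of cell division in the levels of the zinc finger genes was not tested.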

How the data were processed

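Libraries of MRC-5 cells were sequenced in 5 groups of 3. According to the submitters' processing notes, Trimmomatic, STAR, DESeq2 and GRCh38 served upstream, and the authors deposited unnormalized counts for each gene. Release of the annotation and strand setting are not given in the sources used here. All columns matched a sample label, which left 0 unused columns. Total counts lay between 26725885 and 43116046.

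Genes were placed with GENCODE 44, from which 324 table genes are absent. After filterByExpr and TMM, edgeR 4.0.16 (R 4.3.3) fitted a single model with a mean for each group, and its quasi-likelihood F test gave p-values that were adjusted by Benjamini-Hochberg over 15799 genes. A gene was called at adjusted p < 0.05. CPM are counts scaled by the TMM library sizes. Loess curves (span 0.3, prior count 1) of each library against the young control mean gave offsets for GC content and length. A KRAB box needed 11 of 15 anchor residues in the translated canonical transcript. Clusters were separated by more than 1 Mb, and 0.5 Mb or 2 Mb gave 10 or 6 clusters in place of 9. Exonic sharing was counted on both strands.

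The alternatives were DESeq2 1.42.0, its size factors, no filter, the offsets, a replicate block, a fit of the compared libraries alone, genes sharing no exonic base and each library left out. Replicate numbers were checked for pairing. Python 3.11.15, numpy 2.4.6, pandas 2.3.3, scipy 1.17.1, Biopython 1.88, matplotlib 3.10.9 and limma 3.58.1 (within edgeR) were used, and the fit was tested on simulated data.

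The genes, lists and tests were chosen with earlier results of these data known. Named were, in each comparison, the 5 called genes of largest change in each direction whose libraries do not overlap, the gene of smallest adjusted p in each cluster and the 3 of smallest adjusted p at the end of 19q, the 3 of highest level per length, genes with a known role, and single genes where a count was 5 or fewer. Protein sequences were not used here beyond these translations.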

Additional observations from a re-analysis of the deposited data

How the results depend on the processing

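Replicate numbers did not pair the libraries: of 30 pairs of same-numbered libraries, 2 had deviations correlated above 0.1 (range -0.105 to 0.22, median 0.002). The replicate block left all counts of called genes within 1.5 times of those reported and ended 0 of 95 calls of single genes followed. DESeq2's size factors and its test also ended 0, no filter ended 4, only the libraries compared 8, the offsets 9, the block with offsets 11, and leaving out a library 2 to 9. Offsets without senescent empty vector replicate 3, chosen after seeing the data, ended 13. The rises of ZNF865 and ZNF787 turned to -0.12 and -0.47 with the offsets, -0.12 and -0.47 with block and offsets and -0.0067 and -0.44 with offsets without that library, and that of ZNF787 with TRF2 to -0.36 in all 3. Under the offsets, block with offsets and offsets without that library, the genes lower at senescence with the empty vector numbered 22, 22 and 19 (median 0.36, 0.36 and 0.31), and those lower past the threshold of 1 numbered 4, 4 and 3. With TRF2 the first 2 gave 23 lower each, the medians were 0.23, 0.24 and 0.24, and 4 were lower past the threshold in each. Among genes sharing no exonic base 0 and 2 were lower past that threshold, and 2 with siLMNB1. With siLMNB1 only the libraries compared gave 76 higher and 9 lower, the offsets 8 lower and the added alternative 9. For TRF2 in senescent cells, only the libraries compared gave 0 higher, the added alternative 3 higher, and no filter, offsets and block with offsets 2, 3 and 1 lower (median 0.0008 and 0.0026 with the latter). The interaction gave 2 calls with no filter and 1 each with offsets, block with offsets, DESeq2 and the added alternative. The causes were not tested.

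With each library left out in turn, higher and lower genes ranged from 71 to 82 and 32 to 43 at senescence with the empty vector (median 0.10 to 0.20), from 57 to 71 and 25 to 43 with TRF2 (0.10 to 0.18), from 28 to 72 and 1 to 7 with siLMNB1 (0.23 to 0.34), from 0 to 0 for TRF2 in young cells (0.04 to 0.14), from 2 to 18 and 0 to 6 for TRF2 in senescent cells (0.03 to 0.09) and from 0 to 8 for the interaction. Past the fold change thresholds the ranges were 24 to 36 and 6 to 12, 17 to 24 and 7 to 11, and 21 to 32 and 1 to 3. Without any of the 6 libraries compared, 1 to 3 genes were lower with siLMNB1, and the count lower past the threshold was 1 without young control replicate 2 or siLMNB1 replicate 3, and with TRF2 at senescence it was 7 without young TRF2 replicate 2. For TRF2 in senescent cells 6 genes were lower without replicate 1 and 3 without replicate 2 of the empty vector. How sequencing depth limits these counts was not tested.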
